A study of Homo sapiens with 6 samples.

Results

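The endocannabinoid receptor and enzyme set held 9 genes of the 58735 in the expression table of U251 cells, a human glioblastoma line. The genes were the cannabinoid receptor CNR1, the 2-arachidonoylglycerol (2-AG) synthases DAGLA and DAGLB, the 2-AG hydrolases MGLL, ABHD6 and ABHD12, the anandamide-releasing enzyme NAPEPLD, and the hydrolases FAAH and NAAA. Each was found by its exact gene name, and all 9 were present. CNR1 and MGLL were chosen by their expression difference between these same libraries, CNR1 as the receptor that was lower and MGLL as the hydrolase that was higher, so their values are a description and carry no test. The other 7 were named by function alone.

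The study asked how a low dose of tumor necrosis factor-α (TNF-α), a cytokine that acts through NF-κB, alters U251 cells. In the TNF-α group, cultures received recombinant human TNF-α at 10 ng/mL for 24 h. Those of the control group, NC, received sterile deionized water of the same volume over the same time. Each group had 3 RNA sequencing libraries, labelled as independent biological replicates, and both groups were the same cell line grown without the other cells of a tumor.

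Endocannabinoids are lipid messengers cut on demand from membrane phospholipids. DAGLA and DAGLB release 2-AG from diacylglycerol, and NAPEPLD releases anandamide and related N-acylethanolamines. The receptor CNR1 couples to inhibitory G proteins and is abundant in brain, where neurons and glia carry it. 2-AG is cleaved to arachidonic acid and glycerol, in brain chiefly by MGLL and to a lesser extent by ABHD6 and ABHD12, while FAAH and NAAA cleave N-acylethanolamines at the membrane and in the lysosome.

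CNR1 (ENSG00000118432) lies on the minus strand at chr6:88139864-88166359 of GRCh38 and has several first exons. RefSeq (GRCh38.p14) gave 6 CNR1 start sites among the 13 windows of 6 matched members, the others being NAPEPLD, FAAH, ABHD6, DAGLB and ABHD12. For MGLL, DAGLA and NAAA no window was used here. Because CNR1 had the largest difference among the members, the 250 bases before 2 of its start sites are shown, one GC-rich window next to the annotated gene start and one GC-poor window further into the gene, both 5′ to 3′ on the minus strand. Capitals mark a GC box (GGGCGG, on either strand) in the first and TATAAA (on either strand) in the second.
CNR1, chr6:88166348-88166597: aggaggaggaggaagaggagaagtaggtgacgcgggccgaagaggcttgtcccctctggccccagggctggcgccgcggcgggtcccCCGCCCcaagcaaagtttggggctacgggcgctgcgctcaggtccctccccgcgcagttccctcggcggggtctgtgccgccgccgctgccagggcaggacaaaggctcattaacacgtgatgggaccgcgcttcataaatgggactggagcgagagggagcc
CNR1, chr6:88163025-88163274: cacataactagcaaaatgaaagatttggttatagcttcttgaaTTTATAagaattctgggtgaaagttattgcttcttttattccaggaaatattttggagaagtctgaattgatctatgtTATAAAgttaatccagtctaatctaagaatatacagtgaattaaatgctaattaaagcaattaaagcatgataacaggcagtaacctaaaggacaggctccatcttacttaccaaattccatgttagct
The first window was 68.4% G and C and held 22 CpG dinucleotides and 1 GC box, which began 163 bases before the start. The second was 30.8% G and C, held 0 CpG dinucleotides and had TATAAA matches beginning 207 and 129 bases before the start. The motifs did not overlap. A GC box occurred in 42.6% and TATAAA in 10.7% of all 35116 RefSeq windows of this length. The NF-κB consensus, searched on both strands, was matched in 0 of the 13 member windows and in 5.21% of all windows, which says only that these letters were not in these 250 bases. The expression table gives 1 value per gene, so transcripts from the different CNR1 starts cannot be told apart.

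Sequencing depth was similar across libraries, with 31992167 to 37897044 reads assigned to genes, but TNF-α replicates 2 and 3 stood apart from the other 4 libraries. They held values above 0 for 22022 and 21843 genes, against 24562 to 25085 genes in the others. The library size inside the deposited FPKM (fragments per kilobase of exon, scaled to library size) was 0.693 and 0.759 of their reads in genes, against 0.925 to 0.959 in the others. The response to the cytokine was present in each treated library. NFKBIA, an NF-κB inhibitor induced by NF-κB itself, stood at 13.0, 13.3 and 14.4 FPKM in NC and at 75.3, 118 and 112 FPKM in TNF-α. TNFAIP3, another feedback inhibitor, stood at 4.14, 3.44 and 4.22 FPKM in NC and at 57.6, 18.9 and 26.8 FPKM in TNF-α. Of the astroglial and glioblastoma markers, 4 of 5 reached a mean of 1 FPKM over the 6 libraries (GFAP, VIM, NES and SOX2), with S100B near 0, and their summed level was 435 to 482 FPKM in NC and 534 to 1069 FPKM in TNF-α. VIM made up most of this sum, at 343 ± 18.7 FPKM in NC and 753 ± 283 in TNF-α (SD, n = 3), while SOX2 stood at 60.8, 58.9 and 66.3 FPKM in NC and at 57.8, 22.6 and 30.4 FPKM in TNF-α. GFAP stood at 8.16, 7.10 and 9.47 FPKM in NC and at 1.58, 2.60 and 2.39 FPKM in TNF-α. Of the neuronal markers, SYT1 reached a mean of 1 FPKM over the 6 libraries and SNAP25 did so over the NC libraries only (1.05 ± 0.137 FPKM, SD, n = 3), with RBFOX3 and STMN2 near 0, and their sum was 4.45 to 4.82 FPKM in NC and 1.96 to 4.50 FPKM in TNF-α. None of the 4 microglial and leukocyte (PTPRC, AIF1, CX3CR1, CSF1R) or 4 endothelial markers (PECAM1, CDH5, VWF, CLDN5) reached that mean. The part of the marker shifts in the results was not tested.

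CNR1 was lower in every TNF-α library than in any NC library. Its level was 4.75, 4.70 and 4.79 FPKM in NC replicates 1 to 3 and 1.06, 0.358 and 0.577 FPKM in TNF-α replicates 1 to 3. The NC libraries lay close together and the groups did not overlap. The mean was 4.75 ± 0.0494 FPKM in NC and 0.666 ± 0.360 FPKM in TNF-α (SD, n = 3 each), so the NC mean was 7.13 times the TNF-α mean. On the log2(FPKM + 1) scale, which understates differences at low levels, the difference was -1.81 (SE 0.18). These levels rested on 1092, 979 and 979 reads in NC and on 217, 59 and 89 reads in TNF-α. In bulk RNA a lower level in each cell and fewer cells with the transcript cannot be told apart.

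MGLL (ENSG00000074416, minus strand, chr3:127689062-128052190), which hydrolyses 2-AG and other monoacylglycerols, went the opposite way. Its level was 0.754, 0.739 and 1.00 FPKM in NC replicates 1 to 3 and 2.24, 2.98 and 3.35 FPKM in TNF-α replicates 1 to 3. Every TNF-α library was above every NC library. The mean was 0.832 ± 0.149 FPKM in NC and 2.86 ± 0.568 FPKM in TNF-α (SD, n = 3 each), a ratio of 3.43, and the log2 difference was 1.07 (SE 0.15). MGLL had 287 to 382 reads per library in NC and 852 to 965 in TNF-α. CNR1 met the minimum of 1 FPKM in 3 libraries through its NC libraries. MGLL met it only with the TNF-α libraries, where it was high, so it could not have been tested without a higher level there. In the fit across 12136 genes with limma, 123 genes, or 1.01%, had an adjusted p under the threshold of 0.05, 87 of them higher and 36 lower in TNF-α. CNR1 and MGLL were the 2 members among them, which the way they were chosen had fixed.

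**Figure D1:**
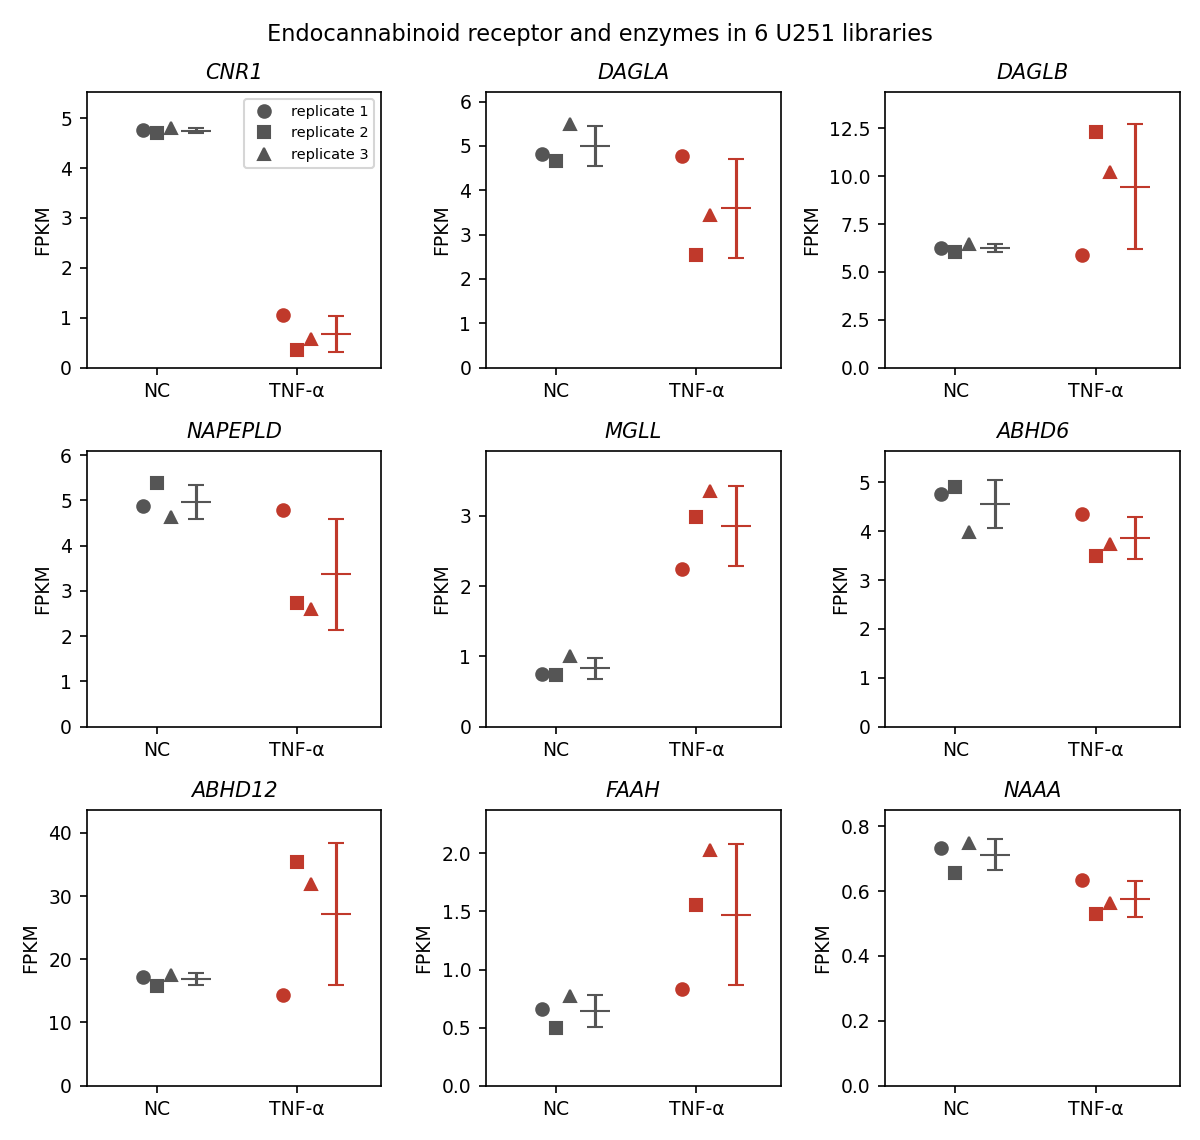
FPKM of the 9 members (vertical axes, each from 0) in NC and TNF-α, with 1 point per library shaped by replicate number and a bar with whiskers for the mean and SD of 3 libraries. CNR1 (4.70 to 4.79 against 0.358 to 1.06) and MGLL (0.739 to 1.00 against 2.24 to 3.35) are apart in all 3 treated libraries, while DAGLA, DAGLB, NAPEPLD and ABHD12 have TNF-α replicate 1 near the NC points and replicates 2 and 3 away from them.

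The difference in CNR1 and MGLL was present in TNF-α replicate 1, the treated library whose library size factor was like that of NC. Relative to the NC mean, CNR1 stood at -1.48, -2.08 and -1.87 on the log2(FPKM + 1) scale in TNF-α replicates 1, 2 and 3, and MGLL at 0.82, 1.12 and 1.25. The median over all tested genes stood at -0.01, 0.08 and 0.05 in the same libraries. After a correction for GC content and gene length in each library, CNR1 stood at -1.50, -1.74 and -1.54 and MGLL at 0.85, 1.23 and 1.35. On the TPM scale, which sets every library to the same sum of per-length levels and on which the median gene was lower by 0.42 in TNF-α on the log2 scale, CNR1 differed by -2.79 and MGLL by 1.05. Both members kept their direction under each scaling that was run, which describes the values they were chosen by and is no test of them.

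Of the 2-AG synthases, DAGLA, the form most tied to synaptic signalling in brain, and DAGLB, the form prominent in microglia and macrophages, lay on opposite sides of NC in the FPKM of TNF-α replicates 2 and 3 and near NC in replicate 1. DAGLA (ENSG00000134780, plus strand, chr11:61680433-61747001) stood at 4.82, 4.67 and 5.50 FPKM in NC and at 4.77, 2.55 and 3.45 FPKM in TNF-α. Its TNF-α replicate 1 fell inside the NC range, so the groups overlapped. The log2 difference was -0.41 (SE 0.20, adjusted p = 0.197 by limma) and the exact permutation test, whose smallest possible p here is 0.1, gave p = 0.2. The difference was -0.94 in TPM and -0.71 with the GC and length correction, and passed the test in neither. In TPM the median over all tested genes was -0.42. Relative to the median of the same fit, DAGLA was at -0.52 in TPM and at -0.45 in the main fit.

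DAGLB (ENSG00000164535, minus strand, chr7:6409126-6484190) stood at 6.25, 6.04 and 6.48 FPKM in NC and at 5.87, 12.3 and 10.2 FPKM in TNF-α. TNF-α replicate 1 was the lowest of the 6 libraries and replicates 2 and 3 the highest. The log2 difference was 0.47 (SE 0.25, adjusted p = 0.211 by limma), with an exact permutation p = 0.4. It depended on the scaling, since DAGLB stood at 24.1, 23.6 and 24.4 TPM in NC and at 22.0 and 26.6 TPM in TNF-α replicates 1 and 2, with replicate 3 between these. The log2 difference was 0.025 in TPM, where the median over all tested genes was -0.42, and 0.25 with the GC and length correction. The ratio of DAGLB to DAGLA in FPKM was 1.30, 1.29 and 1.18 in NC and 1.23, 4.84 and 2.96 in TNF-α. The ratio in TNF-α replicate 1 was thus inside the NC range. The merged exons of the genes are nearly equal in length, 5757 bases for DAGLA and 5756 for DAGLB, and the longest transcripts were 62.8% and 56.9% G and C. Exon bases shared with another gene were 8.84% of DAGLA (antisense to DKFZP434K028) and 6.53% of DAGLB (KDELR2, same strand). Reads from the bases shared with KDELR2 cannot be assigned to one gene by position or strand, and those shared with DKFZP434K028 cannot where the counting did not use strand.

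NAPEPLD (ENSG00000161048, minus strand, chr7:103099776-103149560), which opens the main route to anandamide, was like DAGLA in its pattern over the libraries. It stood at 4.88, 5.38 and 4.63 FPKM in NC and at 4.78, 2.72 and 2.60 FPKM in TNF-α. Its log2 difference was -0.48 (SE 0.21, adjusted p = 0.195 by limma, exact permutation p = 0.2), and only TNF-α replicates 2 and 3 lay below the NC range. With the GC and length correction the log2 values relative to the NC mean were -0.07, -0.04 and -0.16. NAPEPLD had the lowest G and C content of the 9, at 37.6% of its longest transcript, and its difference was -0.093 under that correction. In TPM its difference was -1.02, where the median over all tested genes was -0.42. Relative to the median of the same fit, NAPEPLD was at -0.60 in TPM and at -0.52 in the main fit.

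The other 2-AG hydrolases did not share the pattern of MGLL. ABHD6 (ENSG00000163686, plus strand, chr3:58237506-58295693), a membrane hydrolase facing the cytosol, stood at 4.76, 4.91 and 3.99 FPKM in NC and at 4.34, 3.49 and 3.74 FPKM in TNF-α. The groups overlapped, and the log2 difference was -0.19 (SE 0.13, adjusted p = 0.296 by limma, exact permutation p = 0.2). It was -0.50 with the GC and length correction and -0.69 in TPM, and passed the test in neither. Relative to the median over all tested genes in the same fit, ABHD6 was at -0.27 in TPM and at -0.24 in the main fit. ABHD12 (ENSG00000100997, minus strand, chr20:25294743-25390983), which also hydrolyses lysophosphatidylserine, was the most abundant member, at 17.3, 15.8 and 17.6 FPKM in NC and 14.4, 35.4 and 31.9 FPKM in TNF-α. TNF-α replicate 1 was below the NC range and replicates 2 and 3 above it, so the log2 difference of 0.56 (SE 0.33, adjusted p = 0.238 by limma, exact permutation p = 0.4) averaged libraries that lay on opposite sides of NC. With the GC and length correction ABHD12 stood at -0.23, 0.12 and 0.11 relative to the NC mean, and the group difference was 0.0010. In TPM the group difference was 0.080, where the median over all tested genes was -0.42. Relative to the median of the same fit, ABHD12 was at 0.50 in TPM and at 0.52 in the main fit.

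Set against one another, MGLL took a larger part of the summed FPKM of the 3 hydrolases in every TNF-α library. MGLL was chosen as the hydrolase that was higher in these same libraries, so its larger share is a description and no test. Its share was 3.31, 3.44 and 4.45% in NC and 10.7, 7.12 and 8.61% in TNF-α, and the highest share was in TNF-α replicate 1. ABHD6 held 20.9, 22.9 and 17.7% in NC and 20.7, 8.35 and 9.60% in TNF-α. ABHD12 held the most in all 6 libraries, from 73.7 to 77.9% in NC and from 68.6 to 84.5% in TNF-α. The share of MGLL rests on a per-length level, and its merged exons (11849 bases) are 2.40 times as long as its longest transcript. Per kilobase of the longest transcript instead, MGLL stood at 2.00 ± 0.357 in NC and 6.85 ± 1.36 in TNF-α (SD, n = 3), below the ABHD6 level of 6.58 ± 0.713 in NC and above its level of 5.58 ± 0.633 in TNF-α. This order of the TNF-α means held in replicates 2 and 3 only. In TNF-α replicate 1, MGLL (2.24 FPKM, length factor 2.40) stayed below ABHD6 (4.34 FPKM, length factor 1.45) on this scale.

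**Figure D2:**
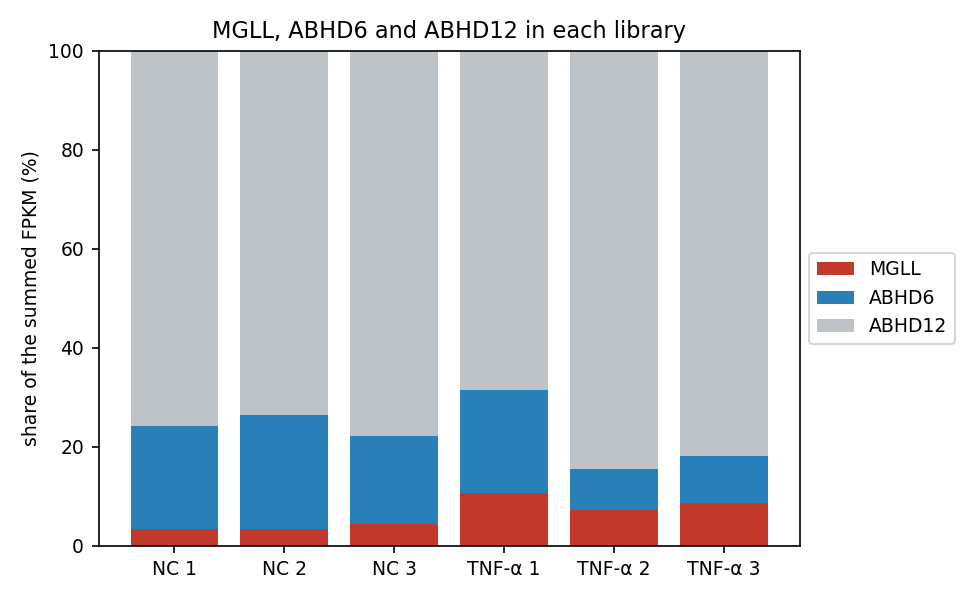
Share of the summed FPKM of MGLL, ABHD6 and ABHD12 (vertical axis, percent) in each of the 6 libraries, as stacked bars. The MGLL part is 3.31 to 4.45% in NC and 7.12 to 10.7% in TNF-α, and the ABHD6 part is small in TNF-α replicates 2 and 3 only. MGLL was chosen for being higher in TNF-α, so its part is a description.

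FAAH and NAAA, the N-acylethanolamine hydrolases, were near or under 1 FPKM and did not pass the minimum level, so their statistics come from a fit to all 31662 genes with a value above 0. FAAH (ENSG00000117480, plus strand, chr1:46394265-46413848) stood at 0.658, 0.494 and 0.774 FPKM in NC and at 0.830, 1.56 and 2.03 FPKM in TNF-α, from 45 to 69 and from 74 to 137 reads. The groups did not overlap, though TNF-α replicate 1 lay close to the highest NC library. The log2 difference was 0.56 (SE 0.23, unadjusted p = 0.0479, adjusted p = 0.356 by limma, exact permutation p = 0.1). Correcting each library for GC content and gene length left a difference of 0.074 (limma, adjusted p = 0.717). In TPM the difference was 0.47 (limma, adjusted p = 0.245), so it depended on the scaling.

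NAAA (ENSG00000138744, minus strand, chr4:75913657-75941051) stood at 0.732, 0.656 and 0.747 FPKM in NC and at 0.635, 0.528 and 0.563 FPKM in TNF-α. Its groups did not overlap either, with a log2 difference of -0.12 (SE 0.12, adjusted p = 0.562 by limma, exact permutation p = 0.1). NAAA shares 2.29% of its exon bases with SDAD1. In the fit without a minimum, 0.183% of genes passed the threshold, 13.1% had an unadjusted p under 0.05, and in 18.7% the groups did not overlap.

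Among the 9 members, 7 were tested in the main fit and 2 were not. None of the 5 tested members named by function passed, against the 1.01% of all tested genes, and 0 of the 5 had an unadjusted p under 0.05, against 24.2% of all tested genes. Groups did not overlap in 2 of the 7 tested members (CNR1 and MGLL), against 30.1% of all tested genes. These calls changed with the leaving out of TNF-α replicate 1. Without it, all 5 passed, ABHD12 at a log2 difference of 0.95, DAGLB at 0.75, NAPEPLD at -0.70, DAGLA at -0.59 and ABHD6 at -0.26, but so did 79.4% of all tested genes (9630), so the count is close to the background of that fit. In replicate 1 alone, ABHD12 (-0.22) and DAGLB (-0.080) lay below the NC mean. The part of the unequal library composition in these differences was not tested.

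**Figure D3:**
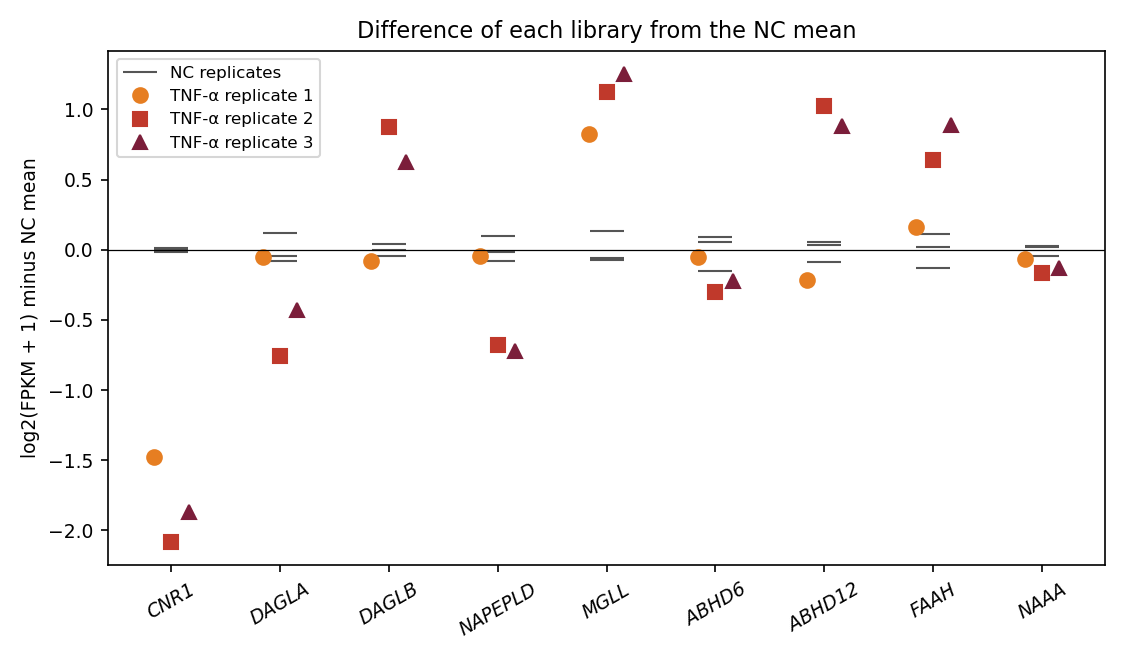
Difference of each TNF-α library from the NC mean on the log2(FPKM + 1) scale (vertical axis) for each member, with horizontal ticks for the 3 NC libraries. CNR1 (-1.48, -2.08, -1.87) and MGLL (0.82, 1.12, 1.25) leave the NC ticks in all 3 libraries, and DAGLB and ABHD12 are below 0 in replicate 1 and above 0 in replicates 2 and 3.

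**Figure D4:**
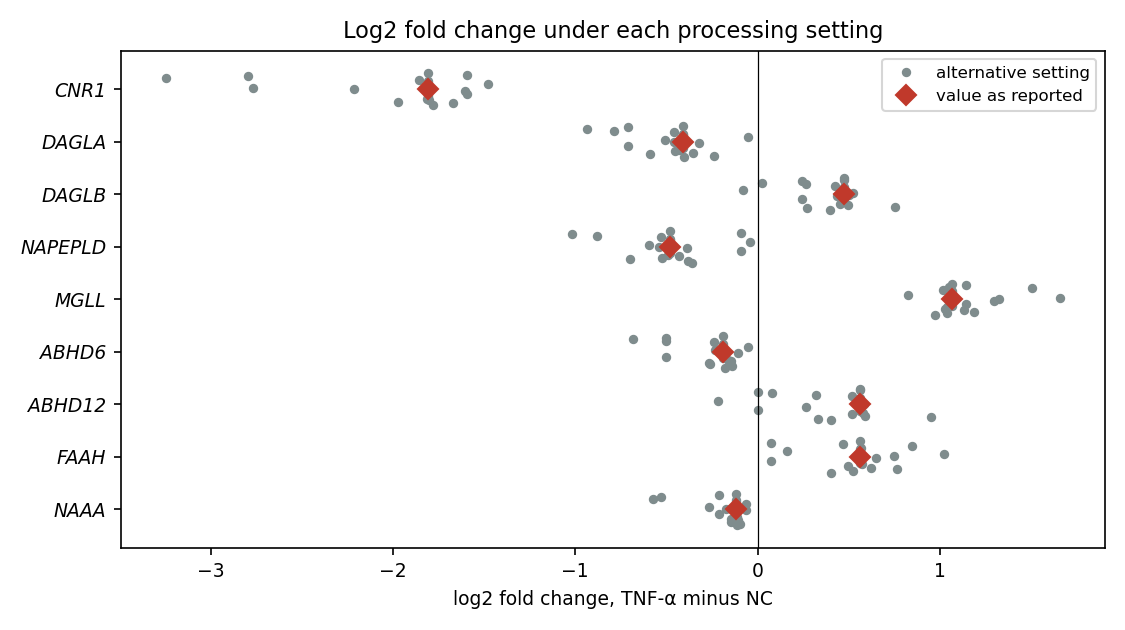
Log2 difference between TNF-α and NC (horizontal axis) for each member as reported (diamond) and under each alternative setting (grey points). CNR1 ranges from -3.25 to -1.48 and MGLL from 0.82 to 1.66, while DAGLB (-0.080 to 0.75) and ABHD12 (-0.22 to 0.95) reach both sides of 0.

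The order of the members by FPKM changed mainly through CNR1 and MGLL. ABHD12 was the highest and DAGLB the next in all 6 libraries. In NC, DAGLA (4.99 ± 0.444 FPKM), NAPEPLD (4.96 ± 0.380), CNR1 (4.75 ± 0.0494) and ABHD6 (4.55 ± 0.493) followed at levels that did not differ beyond their SD, and their order varied among the 3 libraries. MGLL, NAAA (0.712 ± 0.0486) and FAAH (0.642 ± 0.140) were the lowest. In TNF-α, CNR1 ranked 7, 9 and 8 of the 9 in replicates 1, 2 and 3, and MGLL ranked 6, 4 and 5. The mean levels in TNF-α were 27.2 ± 11.3 FPKM for ABHD12, 9.46 ± 3.29 for DAGLB, 3.86 ± 0.437 for ABHD6, 3.59 ± 1.12 for DAGLA, 3.37 ± 1.22 for NAPEPLD, 1.47 ± 0.606 for FAAH and 0.575 ± 0.0547 for NAAA (SD, n = 3), and only ABHD12 and DAGLB lay apart from all others in every library.

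The genes whose log2 levels followed CNR1 most closely over the 6 libraries were SOX21 (Pearson r = 0.999), DIO2 (0.999), PITPNM3 (0.998), NEURL1B (0.998) and PDGFRA (0.997). SOX21 is a transcription factor of neural progenitors and PDGFRA the receptor α for platelet-derived growth factor. SOX21 had 9.37 ± 0.248 FPKM in NC and 2.45 ± 0.760 in TNF-α, and PDGFRA 2.80 ± 0.123 and 0.586 ± 0.334 (SD, n = 3). For MGLL the closest were BBC3 (0.998), an inducer of apoptosis also known as PUMA, ARID3B (0.998), ZNF276 (0.997), TMEM171 (0.997) and TAP1 (0.996), a peptide transporter of antigen presentation. BBC3 had 1.40 ± 0.232 FPKM in NC and 4.57 ± 1.11 in TNF-α, and TAP1 89.1 ± 5.35 and 159 ± 14.9. The 6 points fall into the treatment groups, so these values mainly describe the shared group difference, and r exceeded 0.95 with 272 genes for CNR1 and 339 genes for MGLL.

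The wider pathway was followed in 81 other genes sorted by role. Of these, 47 were tested and 34 lay under the minimum level, and 0 of the 47 passed the threshold in either direction, the smallest adjusted p by limma being 0.195. By the same fit 11 had an unadjusted p under 0.05, 5 higher and 6 lower in TNF-α, which is 23.4% of the 47 against 24.2% of all tested genes. Their median log2 difference was 0.01, against 0.04 over all tested genes, with 24 of 47 above 0, and the groups did not overlap in 22, or 46.8%, against the 30.1% of all tested genes. Without TNF-α replicate 1, 35 of the 47 passed, or 74.5%, against 79.4% of all tested genes.

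**Figure D5:**
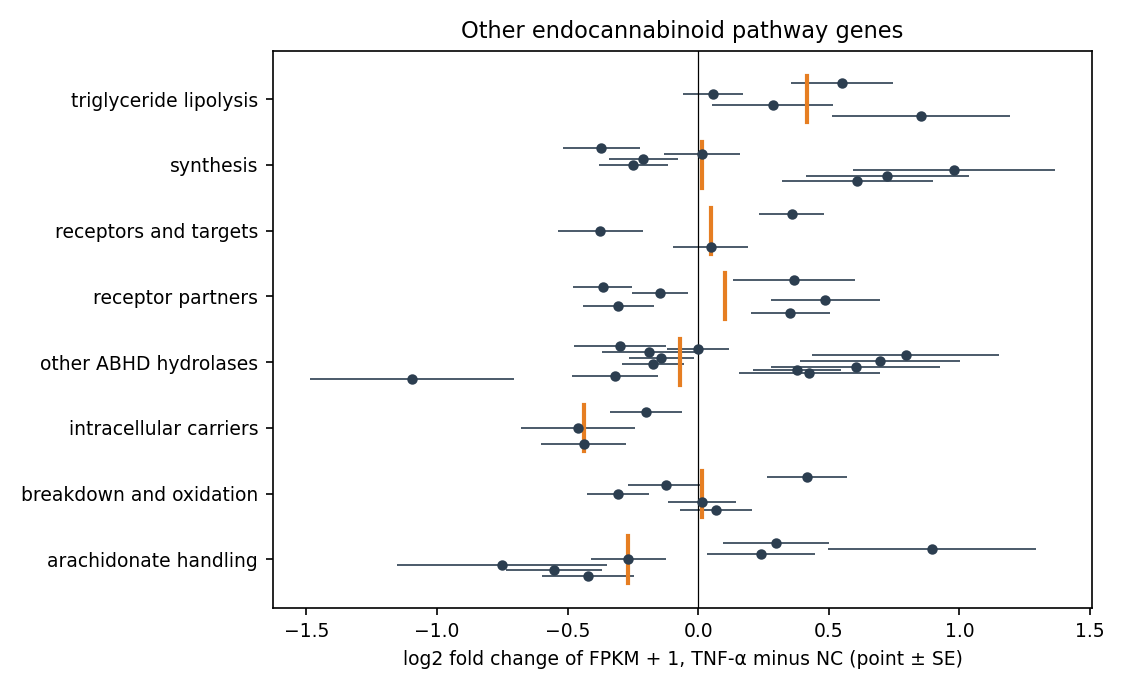
Log2 fold change of FPKM + 1 between TNF-α and NC (horizontal axis) with its SE for the 47 tested pathway genes, in rows by role, with an orange line at the median of each role. Points lie on both sides of 0 in most roles, from -1.10 to 0.98, except the 3 intracellular carriers, all below 0 here though 1 lay above 0 with the GC and length correction, and the 4 lipolysis genes, all above 0 here but only 2 of them in TPM.

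Among 9 receptors and targets other than CNR1, 3 were tested and 6 lay under the minimum level. CNR2, the cannabinoid receptor of immune cells, was listed at 0 in all 6 libraries, as was PPARG, and GPR55, GPR18 and GPR119 averaged under 0.1 FPKM. PPARD, a lipid-activated nuclear receptor, had 28.7 ± 0.941 FPKM in NC and 37.1 ± 1.95 in TNF-α (SD, n = 3), and PPARA, the nuclear receptor for oleoylethanolamide and palmitoylethanolamide, 1.53 ± 0.0604 and 0.978 ± 0.381. Neither passed the test (adjusted p = 0.195 for both, limma). In TPM, PPARD stood at 110, 108 and 112 in NC and at 131, 83.1 and 92.8 in TNF-α, so replicates 2 and 3 lay below NC there. TRPV1, a cation channel that anandamide can open, stood at 0.933, 1.09 and 1.04 FPKM in NC and at 0.801, 1.13 and 1.38 FPKM in TNF-α. Its listed level was above that of CNR1 in TNF-α replicates 2 and 3. However, 1658 of the 5519 merged exon bases of TRPV1 are shared with other genes on the same strand, among them SHPK. Reads from the shared bases cannot be assigned to one gene by position or strand, so this order is uncertain. TRPV1, CNR2, PPARG, GPR55, GPR18 and GPR119 were named after their values were seen. Of 9 receptor partners 6 were tested, with GNAI2, an inhibitory G protein subunit, at 66.3 ± 5.10 and 94.8 ± 21.0 FPKM and CNRIP1, a protein that binds the CNR1 tail, at 21.9 ± 0.738 and 28.4 ± 3.97 FPKM. GNAI2 stood at 71.3 FPKM in TNF-α replicate 1, inside the NC range. In TPM the median log2 difference over all tested genes was -0.42. On that scale 0 of the 3 tested receptors and targets and 0 of the 6 tested partners lay above 0.

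Of 18 further synthesis genes 7 were tested, with a median log2 difference of 0.01. PLCB3, a phospholipase C that supplies diacylglycerol, had 27.0 ± 1.71 FPKM in NC and 27.3 ± 3.16 in TNF-α. PLA2G16, a phospholipase and acyltransferase, had 12.9 ± 0.165 and 23.3 ± 9.55 FPKM. Its TNF-α replicate 1 stood at 13.1 FPKM and replicates 2 and 3 at 32.0 and 24.8 FPKM, so it too differed mainly in the latter. Of 10 genes of breakdown and oxidation 5 were tested, with a median of 0.02. PPT1, a lysosomal thioesterase, had 33.7 ± 2.05 and 35.5 ± 3.02 FPKM and CES2, a carboxylesterase, 8.92 ± 0.745 and 9.04 ± 0.816, both nearly level between the groups.

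The 3 tested intracellular carriers of 4 were lower on average, with a median of -0.44, though 1 of them lay above 0 with the GC and length correction. FABP7, the brain fatty acid binding protein that can carry endocannabinoids to FAAH, stood at 3.56, 3.30 and 3.18 FPKM in NC and at 1.34, 3.10 and 2.29 FPKM in TNF-α, and differed most in TNF-α replicate 1. SCP2, a sterol carrier, had 6.25 ± 0.419 and 5.33 ± 0.738 FPKM. Neither passed the test, with adjusted p = 0.196 and 0.290 by limma. Of 9 genes that handle arachidonate 7 were tested, with a median of -0.27, among them PTGES3, a prostaglandin E synthase and HSP90 co-chaperone, at 105 ± 4.96 and 131 ± 26.7 FPKM and MBOAT7, which returns arachidonate to phosphatidylinositol, at 88.1 ± 4.34 and 106 ± 23.1 FPKM. TNF-α replicate 1 was below every NC library for both, at 100.7 FPKM for PTGES3 and 79.9 FPKM for MBOAT7, so in FPKM only replicates 2 and 3 were higher. In TPM all 3 TNF-α libraries were below every NC library for both. PTGES3 stood at 378, 323 and 352 TPM against 381 to 432 in NC, and MBOAT7 at 300, 268 and 280 against 321 to 351. The median of the 7 genes was -0.77 in TPM, with 1 above 0, where the median over all tested genes was -0.42.

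Of 16 other ABHD hydrolases 12 were tested, with a median of -0.07 and a range from -1.10 to 0.79. ABHD17A, a depalmitoylase, had 20.3 ± 1.96 FPKM in NC and 38.7 ± 16.8 in TNF-α, and ABHD11, a mitochondrial hydrolase, 13.3 ± 1.41 and 22.0 ± 8.80. In TNF-α replicate 1 they stood at 19.9 and 12.0 FPKM, so both were above the NC range in replicates 2 and 3 only. The 4 tested of 6 triglyceride lipolysis genes had a median of 0.42 and all lay above 0 in FPKM, but only 2 of the 4 did so in TPM, where the median over all tested genes was -0.42. PNPLA2, the adipose triglyceride lipase that acts upstream of MGLL in lipolysis, stood at 19.3, 18.6 and 19.4 FPKM in NC and at 20.0, 51.4 and 42.5 FPKM in TNF-α. Unlike MGLL, its level in TNF-α replicate 1 was near the NC range. HILPDA, an inhibitor of PNPLA2, had 4.50 ± 0.410 and 7.19 ± 1.97 FPKM, and neither passed the test (adjusted p = 0.195 for both, limma).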

How the data were processed

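Gene FPKM of 6 libraries (3 NC, 3 TNF-α) were used as deposited by the authors. Per the labels and the submitters' processing notes, oligo(dT)-purified mRNA was sequenced and processed with HISAT2 2.0.5, StringTie 1.3.3b and featureCounts 1.5.0, with DESeq2, edgeR and GATK 3.7 also named. The names, positions and merged exon lengths of the 58735 genes matched GENCODE 29 (GRCh38). Values of 6 other sample columns were not used. Reads per gene were recovered from FPKM steps, with 100% whole within 0.01. They show counting precision only.

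Genes with FPKM of at least 1 in 3 of 6 libraries were tested with limma 3.58.1 in R 4.3.3 (log2(FPKM + 1), trend, two-sided, Benjamini-Hochberg, threshold 0.05). FAAH and NAAA come from the fit without this minimum. Their alternatives were run with a minimum of 0.1 FPKM in 3 libraries, a choice made after seeing the data. Two-sided exact permutation tests used scipy 1.17.1, and ratios compare group means. The GC and length correction removed a spline with 5 degrees of freedom per library. The fit was tested on simulated data. The members and gene lists were chosen with earlier results of these data known. Named genes were the members, the top genes of each list by mean FPKM, the 5 closest correlates of CNR1 and MGLL, and NFKBIA and TNFAIP3. Other scalings, minimum levels, pseudocounts and left-out replicates were run as alternatives. A marker list of 1 further cell type is not reported here.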

Additional observations from a re-analysis of the deposited data

How the results depend on the processing

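Under 22 alternatives (20 to 22 for a single member), CNR1 stayed lower and MGLL higher. CNR1 was -2.77 with a pseudocount of 0.1, -2.22 with 0.5, -2.79 in TPM, -1.59 with the GC and length correction, -3.25 with limma-voom on recovered reads and -1.48 in TNF-α replicate 1 alone. MGLL was 1.66 and 1.33 with those pseudocounts, 1.30 after quantile normalisation, 1.51 with limma-voom and 0.82 in TNF-α replicate 1 alone. ABHD12 (-0.22) and DAGLB (-0.080) turned below 0 in TNF-α replicate 1 alone, an alternative chosen after seeing the data, in which the spread comes from the NC libraries alone and the lone treated library is assumed to vary like them. No other member changed direction. The number of genes past the threshold, 123 as reported, was 58 with no minimum level, 79 with a minimum of 5 FPKM, 58 in TPM, 185 after quantile normalisation, 247 with the GC and length correction, 77 with limma-voom and 732 in TNF-α replicate 1 alone. Members past it, 2 as reported, were 1 with no minimum level or a minimum of 0.1 FPKM, 0 with a minimum of 5 FPKM and 0 in TPM. CNR1 and MGLL lay under the minimum of 5 FPKM and were not tested in that fit. Its 0 therefore concerns DAGLB and ABHD12 only. Apart from the fit without TNF-α replicate 1, the members that passed in any fit were CNR1, MGLL or both. These 2 were chosen by their difference between the same libraries, so the counts of members describe that choice and are no test of it. The causes were not tested.

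Leaving out 1 replicate gave 10 to 9630 genes, 0 to 8 members and 0 to 35 pathway genes past the threshold, and 2 pathway genes passed in TNF-α replicate 1 alone. The upper ends came from leaving out TNF-α replicate 1.
The log2 differences then ran from 0.33 to 0.95 for ABHD12, from -0.27 to -0.14 for ABHD6, from -1.97 to -1.67 for CNR1, from -0.59 to -0.24 for DAGLA, from 0.27 to 0.75 for DAGLB, from 0.40 to 0.77 for FAAH, from 0.97 to 1.19 for MGLL, from -0.15 to -0.10 for NAAA, from -0.70 to -0.36 for NAPEPLD. DAGLA, DAGLB, NAPEPLD, ABHD6, ABHD12 and FAAH passed the threshold in the fit without TNF-α replicate 1 and in no other fit run. No fold change is given for single pathway genes, so their alternatives were counted only.

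Replicate numbers were not taken as pairs in the main fit. The correlations of same-numbered deviations from the group means were -0.01, -0.18 and 0.12. They cannot decide whether samples were paired, because TNF-α replicate 1 deviates opposite to replicates 2 and 3. NC replicate 2, for example, had 0.18, -0.18 and -0.16 with TNF-α replicates 1, 2 and 3. With a replicate block, 24 genes and 0 members passed, and with the block and the GC and length correction 42 genes and 1 member, with CNR1 at -1.59. The smallest difference that 3 libraries per group could detect was not measured.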
